A study of Mus musculus with 32 samples.

Results

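Among 16 RNA-seq libraries of cultured chondrocytes from LG/J mice, the female library numbered 1 and the male library numbered 1 carried high levels of inflammatory transcripts and low levels of cartilage matrix transcripts. These 2 libraries, called the number 1 pair here, were compared with the other 14 LG/J libraries, 7 female and 7 male. They make up 2 of the 32 libraries of the study. The pair was picked by title after earlier results of these data had shown it standing apart, among others in Acan and Mmp3, so all differences between the pair and the other LG/J libraries are given as descriptions without a test. The state was seen in 2 libraries only.

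The study profiled primary chondrocytes isolated from femoral heads at postnatal day 21 in the inbred strains LG/J and SM/J, with 8 female and 8 male libraries of each strain. Cells were plated at 100000 per well, grown in high-glucose medium with 10% fetal bovine serum, and collected without passage after 4 days, per the labels. No treatment is named for any library, and the number 1 pair carries the same labels as the other libraries of its strain and sex. The labels do not tell whether each numbered library is its own animal or culture, so any p-value below measures the spread between libraries, which may be technical.

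Chondrocytes are the only cells of healthy cartilage, where they make a matrix of type II collagen and the large proteoglycan aggrecan under the transcription factor SOX9. When they are exposed to cytokines such as interleukin-1 or tumor necrosis factor, signalling through NF-kB and AP-1 is known to switch them to a program of chemokines, nitric oxide and prostaglandin synthesis and matrix-degrading enzymes, while matrix genes are turned down. The same genes are studied in osteoarthritis, in which aggrecan and collagen are lost from the joint surface.

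Total counts were 20015587 in the LG/J female 1 and 19602302 in the LG/J male 1, within the 15840330 to 23610400 of the other LG/J libraries. Reads of mitochondrial genes made up 0.845% and 0.671% of the pair's counts and 0.447% to 1.04% of the others. Xist was at 60.8 CPM in the female 1 and 0.370 CPM in the male 1, and the Y-linked Ddx3y at 0.422 and 137.6 CPM, as their sex labels require. Xist and Ddx3y occurred together in some of the other libraries, namely LG/J females 4 and 5 (Ddx3y 23.04 and 19.4 CPM), 2 of the SM/J females (3 and 4) and 2 of the SM/J males (2 and 3). Without LG/J females 4 and 5, the counts of genes set apart given below were 1446 higher and 939 lower, in place of 1403 and 960.

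The number 1 pair spent its reads on few genes. Spp1, the secreted phosphoprotein osteopontin, took 14.63% of all counts in the female (95% Wilson interval 14.61 to 14.64%) and 13.28% in the male (13.26 to 13.29%), intervals that cover counting error only. In the other LG/J libraries Spp1 took 0.134% to 1.34%, and in the 16 SM/J libraries 0.127% to 1.78%. The 10 genes with the most reads held 36.1% and 35.0% of counts in the pair, against 11.4% to 13.5% in the other LG/J libraries. In the pair, 86 and 101 genes made up the first 50% of all reads, whereas 385 to 487 genes were needed in the others. The leading genes of both libraries included Spp1, Chil1, Fth1, Mmp3, Dcn and Lcn2. Because a few genes took so many reads, levels below are in CPM, the count of a gene relative to the library's total, scaled with TMM, a factor that balances libraries of different composition. The TMM factors were 0.829 and 0.828 in the pair and 0.9815 to 1.10 in the others.

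A gene was counted as set apart when both libraries of the pair lay above all 14 other LG/J libraries, or both below, and the log2 fold change from a fit with a sex term was at least 1 in size. By this rule 1403 of 17603 genes kept were higher (7.97%) and 960 were lower (5.45%). All counts within gene lists below are to be read against these shares. The median log2 fold change over all genes kept was 0.03. Higher genes were 59.4% of those set apart; when levels were scaled by library size alone, that median was -0.28, with 849 genes higher and 1738 lower, so that higher genes were 32.8%. The difference was 4-fold or more for 531 of the higher and 409 of the lower genes, and 8-fold or more for 252 and 211. Genes set apart as higher held 44.7% of the pair's counts and 5.49% of the counts of the other LG/J libraries. Those set apart as lower held 4.11% and 22.8%. Of the higher genes, 1093 (77.9%) also lay above every SM/J library, and 664 of the lower genes (69.2%) lay below every SM/J library. The matching shares over all genes kept are not given, and these genes were already selected as lying beyond the other LG/J libraries. The SM/J shares are therefore descriptions and not a separate check. In bulk RNA, fewer cells of one kind and less RNA per cell cannot be told apart, which holds for every level below.

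**Figure D1:**
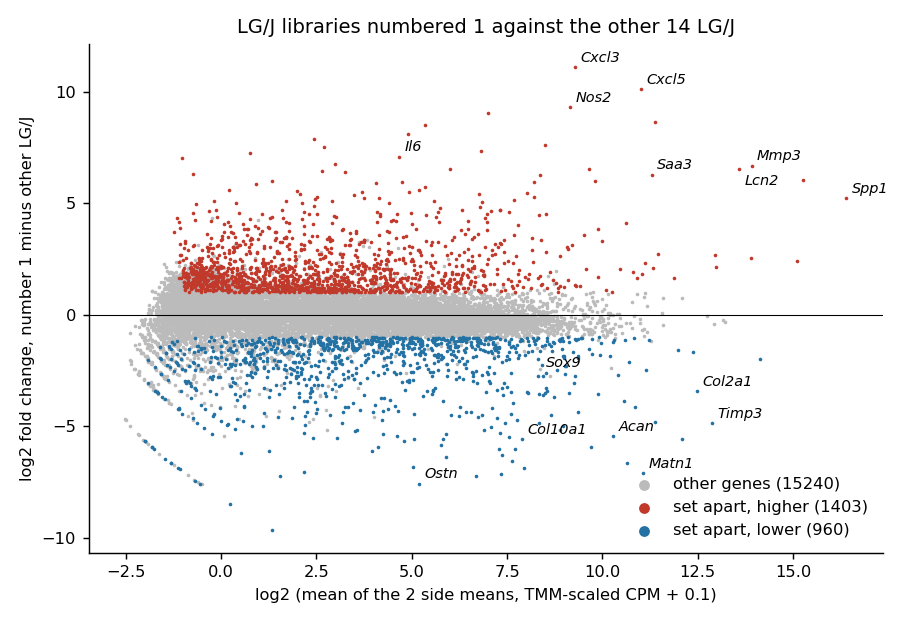
Log2 fold change of the LG/J libraries numbered 1 against the other 14 LG/J libraries (y axis) by mean level (x axis, log2 of TMM-scaled CPM plus 0.1), 1 point per gene kept. Red points are the 1403 genes set apart as higher, blue points the 960 set apart as lower and grey points the other genes, and Cxcl3, Cxcl5 and Nos2 lie at 11.11, 10.13 and 9.30 while Matn1 lies at -7.11.

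Chemokines that attract neutrophils through the receptor CXCR2 showed the largest differences. This family, the CXC chemokines with a Glu-Leu-Arg motif, is a classic output of NF-kB signalling. Of its 6 genes kept, Cxcl1, Cxcl2, Cxcl3, Cxcl5 and Ppbp were set apart as higher and Cxcl15 overlapped, with a median log2 fold change of 8.85. Cxcl3 (chromosome 5) stood at 1575 CPM in the female and 907 CPM in the male, against a lowest of 0.225, a median of 0.435 and a highest of 1.22 CPM in the other 14, a log2 fold change of 11.11. Cxcl5 (ENSMUSG00000029371, GRCm38 chromosome 5, 90759299 to 90761625) stood at 4709 and 3477 CPM against 0.741, 2.13 and 22.7 CPM, a log2 fold change of 10.13. Cxcl1 (chromosome 5, 90891241 to 90893115) stood at 6557 and 4072 CPM against 2.13, 9.95 and 84.5 CPM, a log2 fold change of 8.67. In each of the 3 genes both libraries of the pair were far above the others, and the highest values among the others for Cxcl1 and Cxcl5 came from LG/J males 2 and 3. Cxcl1, Cxcl2 and Cxcl3 are similar in sequence and could share reads. Their sum was 8481 and 5143 CPM against 2.86 to 86.8 CPM.

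The DNA just before the start sites of such genes holds the sites that NF-kB, C/EBP and AP-1 proteins are known to bind. RefSeq promoter windows of GRCm38.p6, from 250 bases before to 50 after each start, were searched on both strands for a form of the NF-kB site (GGG, then 2 bases of any kind, then TTTCC), for TGANTCA (AP-1) and for TTNNGNAA (C/EBP). Windows were at hand for 949 of the 1403 higher genes, 681 of the 960 lower genes and 12395 of the 17603 genes kept. Cxcl5 and Nos2 had none, and a gene with several windows counts more than once. The NF-kB letters were found in 2.72% of the 1286 windows of genes set apart as higher. They were found in 1.89% of the 899 windows of genes set apart as lower and 1.65% of the 15787 windows of genes kept. For AP-1 the shares were 9.25%, 6.79% and 5.75%, and for C/EBP 36.6%, 32.5% and 33.0%. The 120 bases before the start of 5 genes of the NF-kB program and 2 metalloprotease genes are printed because these genes are among those the results turn on. They run 5′ to 3′ on the gene's own strand and end at the base before the start, with capitals marking the NF-kB letters in the first 5 and the AP-1 letters in the last 2.
Cxcl1: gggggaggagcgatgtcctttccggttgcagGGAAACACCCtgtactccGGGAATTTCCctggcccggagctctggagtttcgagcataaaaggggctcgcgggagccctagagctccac
Cxcl2: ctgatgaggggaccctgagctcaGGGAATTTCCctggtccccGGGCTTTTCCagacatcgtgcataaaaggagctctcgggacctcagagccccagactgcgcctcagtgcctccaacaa
Cxcl3: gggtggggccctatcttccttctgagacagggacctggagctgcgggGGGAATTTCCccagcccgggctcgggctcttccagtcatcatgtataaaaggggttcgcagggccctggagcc
Il6: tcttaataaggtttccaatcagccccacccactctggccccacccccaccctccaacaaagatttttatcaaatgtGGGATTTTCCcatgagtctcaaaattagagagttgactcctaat
Nfkbia: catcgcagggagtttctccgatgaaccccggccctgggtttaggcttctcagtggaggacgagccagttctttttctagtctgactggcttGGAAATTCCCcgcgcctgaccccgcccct
Mmp3: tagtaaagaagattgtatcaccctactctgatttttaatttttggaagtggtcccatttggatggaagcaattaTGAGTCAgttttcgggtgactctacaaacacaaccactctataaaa
Mmp10: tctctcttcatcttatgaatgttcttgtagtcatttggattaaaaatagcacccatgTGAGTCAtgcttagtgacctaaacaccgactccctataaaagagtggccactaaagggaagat

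The windows lie on the plus strand at chr5:90891125-90891244 (Cxcl1), chr5:90903779-90903898 (Cxcl2), chr5:90785981-90786100 (Cxcl3), chr5:30012994-30013113 (Il6), chr9:7445702-7445821 (Mmp3) and chr9:7502222-7502341 (Mmp10), and on the minus strand at chr12:55492648-55492767 (Nfkbia). The NF-kB letters began 89 and 71 bases before the start of Cxcl1, 97 and 78 before Cxcl2, 73 before Cxcl3, 44 before Il6 and 29 before Nfkbia. The AP-1 letters began 46 bases before Mmp3 and 63 before Mmp10. A match of letters is a description of the window and not a measured binding site.

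Other chemokines were also higher in the pair. Of 13 genes of the CC family kept, which draw monocytes and lymphocytes, Ccl2, Ccl7, Ccl20, Ccl5 and Ccl17 were set apart as higher and none as lower (median log2 fold change 1.18). Ccl2, the main monocyte attractant, was at 320 and 196 CPM against 2.61, 6.03 and 51.2 CPM, so the pair did not overlap the others. Ccl20, the ligand of CCR6, was at 22.2 and 59.9 CPM against at most 3.46 CPM. Of 7 other CXC and CX3C genes kept, 3 were set apart as higher: Cx3cl1 (log2 fold change 5.16), Cxcl14 (5.04) and Cxcl10 (4.12, whose locus overlaps Art3 on the other strand).

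Among cytokines, the interleukin-6 family and the colony-stimulating factors were set apart most often, with 6 of 9 genes kept higher and none lower. Il6 (ENSMUSG00000025746, chromosome 5, 30013161 to 30019968), a cytokine that drives the acute phase response, was at 62.4 CPM in the female and 38.8 CPM in the male, against 0, 0.334 and 0.965 CPM in the others, a log2 fold change of 7.10. Every other LG/J library held Il6 below 1 CPM. Lif, a related cytokine, was at 75.6 and 43.0 CPM against at most 8.93 CPM (log2 fold change 5.49). Csf1, the growth factor of macrophages, was at 717 and 531 CPM against 55.0 to 501 CPM, a gap over the highest of the others that is small beside its range. Csf2 (4.66), Osm (1.87) and Il34 (1.42) were also set apart, the first 2 at levels below 2 CPM. Tslp, an epithelial cytokine, was at 64.0 and 41.7 CPM against at most 2.84 CPM.

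The cytokines that classically start this response were near the limit of detection. Il1b had 3 counts in the female and 1 in the male, and Tnf had 1 and 2 counts. Csf3 had no count in either library, which allows up to 0.181 CPM in the female and 0.185 CPM in the male (3 counts). None of these 3 genes passed the filter on low counts. Il1a was at 1.51 and 1.11 CPM against at most 0.494 CPM (log2 fold change 2.75), but its locus overlaps Gm14023 on the other strand and the counting is not stated to use strand. Of the 8 IL-1 and TNF family ligands kept, Tnfsf15, Il1a, Tnfsf10 and Tnfsf9 (with Gm11110 on the other strand) were set apart as higher and none as lower.

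Among receptors and adaptors for IL-1, TNF and Toll-like receptor signals, 9 of 28 were set apart as higher and none as lower. Over all genes kept the shares were 7.97% and 5.45%, and the median log2 fold change of the list was 0.60. Cd14, the co-receptor for bacterial lipopolysaccharide, was at 362 and 244 CPM against 3.12, 10.0 and 41.1 CPM (4.68). Lbp, which carries lipopolysaccharide to CD14, was at 402 and 633 CPM against at most 160.3 CPM (3.43). Tlr4 (1.59) and its partner Ly96 (1.16) were set apart, whereas the IL-1 receptor Il1r1, at 25.9 and 34.6 CPM, overlapped the 11.5 to 27.9 CPM of the others. The decoy receptor Il13ra2, which binds interleukin-13, was at 112 and 50.2 CPM against at most 0.820 CPM, a log2 fold change of 8.50.

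Of 25 NF-kB subunits and feedback genes kept, 13 were set apart as higher and 1, Nfkb1, as lower (median log2 fold change 1.35). The largest differences in the list were those of Zc3h12a, Nfkbiz and Traf1 (3.58). Nfkbiz was at 101 and 86.8 CPM against 2.47, 3.33 and 9.27 CPM (4.38), and Zc3h12a, an RNase that degrades cytokine mRNAs, at 18.2 and 11.2 CPM against at most 1.93 CPM (4.43). Nfkbia, which holds NF-kB in the cytoplasm, was at 185 and 144 CPM against 17.5 to 53.7 CPM (2.62). The subunit Rela did not stand apart, at 76.6 and 76.4 CPM within the 64.4 to 89.8 CPM of the others. Nfkb1 was at 23.8 and 22.5 CPM against 32.3 to 102 CPM (-1.19). Among 19 genes of the IL-6 receptor, STAT3 and C/EBP group, Junb, Socs3, Cebpd, Cebpb (with Tmem189 on the other strand) and Pim1 were higher and none was lower. Of 26 immediate early genes, which answer many stimuli within minutes, 15 were higher, led by Nr4a1 (4.23), Fosl1 (4.05) and Dusp6 (3.85), and Atf3 (-2.27) and Klf2 (-2.14) were lower.

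Enzymes that make nitric oxide and prostaglandin E2, products found in inflamed joints, stood out. Nos2 (ENSMUSG00000020826, chromosome 11, 78920787 to 78960254), the inducible nitric oxide synthase, was at 1542 and 722 CPM against 0.297, 1.25 and 7.33 CPM, a log2 fold change of 9.30. Ptges, the inducible prostaglandin E synthase, was at 793 and 503 CPM against 3.86, 7.09 and 17.1 CPM (6.29). Ptgs2, the inducible cyclooxygenase, was at 1605 and 1072 CPM against 20.5, 65.3 and 545 CPM (3.57). The highest other value of Ptgs2 came from the LG/J female 3. In all, 11 of 31 genes of this list were higher, and the prostacyclin synthase Ptgis was lower (-1.61).

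Acute phase and antimicrobial genes held the second highest list median of 4.94, with 11 of 16 genes kept higher and Serpina3c lower. Lcn2 (chromosome 2, 32384633 to 32387797), a protein that sequesters bacterial iron carriers, was at 23680 and 24970 CPM against 58.2, 199 and 1303 CPM (6.53). Saa3 (chromosome 7, 46711998 to 46715676), a serum amyloid A, was at 4870 and 4916 CPM against 3.33, 30.9 and 790 CPM (6.29). Saa1 and Saa2 are near-identical copies whose reads may be split between them, and their sum was 592 and 1105 CPM against 0.289 to 48.5 CPM. Chil1, a chitinase-like glycoprotein released by inflamed cartilage, was at 68580 and 84740 CPM against 112, 1105 and 5012 CPM (6.03). Hp, the hemoglobin-binding haptoglobin, was at 1450 and 2032 CPM against at most 226 CPM (6.01). Slpi, an inhibitor of neutrophil elastase, was at 1729 and 1428 CPM against 7.54, 10.6 and 49.2 CPM (6.56). For each of these genes the pair was above every other LG/J library.

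Complement genes followed with 7 of 27 higher and Cd55, which restrains complement on the cell surface, lower (-1.70). C3, the hub of the cascade, was at 618 and 525.7 CPM against 2.76, 12.1 and 78.5 CPM (5.29). Of 38 interferon response genes 6 were higher (7.97% of all genes were) and 3 lower (5.45% of all). The higher ones were led by Gbp2 (3.03) and Rsad2 (2.94), and the lower ones were Ifit3b (-3.54), Ifi44 (-3.28) and Ifit2 (-3.17). None of 10 MHC class II genes kept was set apart.

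**Figure D2:**
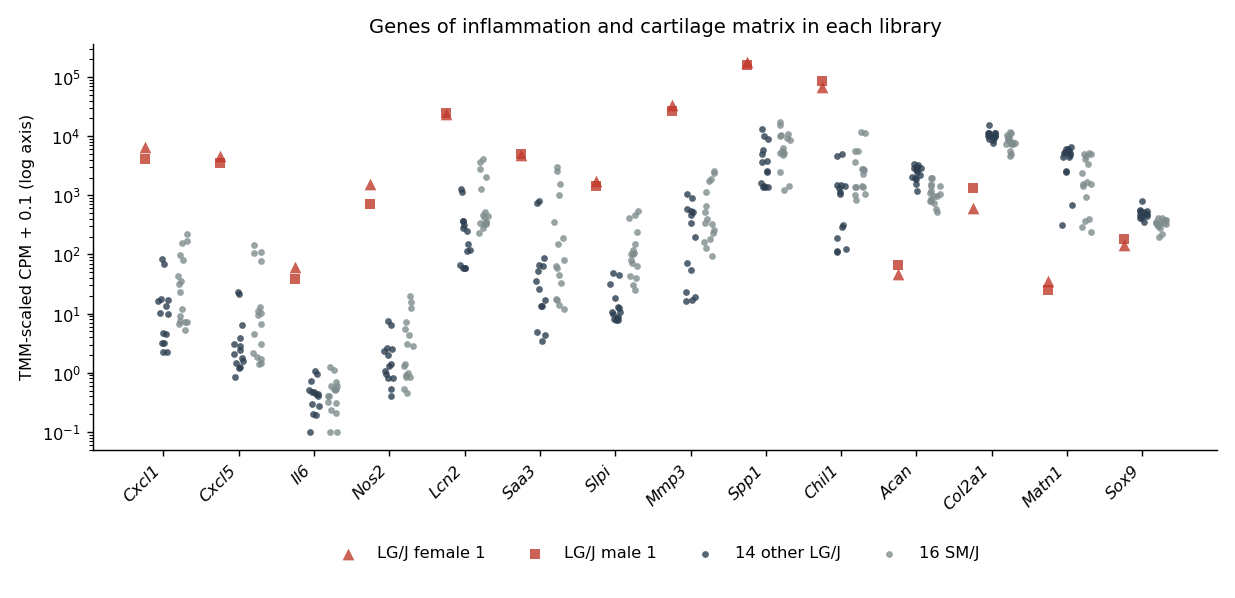
TMM-scaled CPM plus 0.1 (log axis) of 14 genes in each library, with the LG/J female 1 as a red triangle, the LG/J male 1 as a red square, the other 14 LG/J libraries as dark points and the 16 SM/J libraries as grey points. The red symbols lie above all other libraries for the 10 genes from Cxcl1 to Chil1 and below all others for Acan, Col2a1, Matn1 and Sox9.

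Matrix-degrading enzymes were higher in the pair in 8 of 16 metalloproteases kept, with Mmp16 lower. Mmp3 (ENSMUSG00000043613, chromosome 9, 7445822 to 7455972), stromelysin 1, which cuts proteoglycans and activates other metalloproteases, was at 34270 and 26750 CPM against 16.2, 268 and 1043 CPM, a log2 fold change of 6.68. Mmp13, the main collagenase for type II collagen, was at 13850 and 13520 CPM against 667, 2348 and 3777 CPM (2.69). Mmp10, stromelysin 2, was at 98.1 and 44.6 CPM against at most 7.82 CPM (5.58). Of 23 ADAMTS and ADAM genes, 5 were higher and Adamts14 was lower. Adamts5, the main aggrecanase of mouse cartilage, was at 339 and 382 CPM against 5.55, 12.5 and 33.3 CPM (4.59). The other aggrecanase, Adamts4, was only just set apart, at 5.30 and 4.19 CPM against at most 3.31 CPM (1.30), and it lay inside the SM/J range of 1.36 to 11.1 CPM.

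Inhibitors of these enzymes went both ways, with 7 of 27 higher and 5 lower. Timp1, which the same stimuli often induce, was at 3233 and 3263 CPM against 447, 618 and 2335 CPM (1.84). Timp3, the matrix-bound inhibitor of aggrecanases, was at 287 and 777 CPM against 7757, 14130 and 20270 CPM (-4.86). Reck, which restrains metalloproteases at the cell surface, was at 10.1 and 15.4 CPM against 24.5 to 82.4 CPM (-2.18).

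Cartilage matrix genes were the list most often lower. Of 33 kept, 25 were set apart as lower against 5.45% of all genes kept, and 2, Dcn and Cilp, were higher (median log2 fold change -3.56). Acan (ENSMUSG00000030607, chromosome 7, 79053483 to 79115099), which encodes aggrecan, was at 47.1 CPM in the female and 66.0 CPM in the male against 1176, 2594 and 3430 CPM, a log2 fold change of -5.44. Col2a1 (chromosome 15, 97975602 to 98004695), type II collagen, was at 615 and 1346 CPM against 7527, 10270 and 15160 CPM (-3.44). Matn1 (chromosome 4, 130944385 to 130955475), the cartilage matrilin, was at 34.9 and 24.9 CPM against 313, 4927 and 6458 CPM (-7.11). The 3 genes did not overlap the other LG/J libraries, and all 3 were also below the lowest SM/J library.

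Other parts of the type II collagen fibril were lower as well. These included Col11a2 (-6.01), Col11a1 (-4.15), Col9a3 (-5.02), Col9a2 (-4.49) and Col9a1 (-4.34), and the fibril-binding Matn3 (-6.58), Comp (-3.87) and Fmod (-4.80). Ucma, a small secreted protein of immature chondrocytes, was at 5.24 and 3.08 CPM against 67.6 to 1863 CPM (-6.88). Snorc, a cartilage-specific transmembrane proteoglycan, was at 20.5 and 34.4 CPM against 549 to 2852 CPM (-5.92). Not every small proteoglycan was lower: Dcn, the collagen-binding decorin, was at 26000 and 26200 CPM against 2587, 3757 and 8333 CPM (2.56). Of the 6 members that were not set apart, Bgn, or biglycan, lay below all of the others but differed by less than 2-fold (-0.77).

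Transcription factors of the chondrocyte differed less than the matrix. Sox9 was at 142 and 184 CPM against 347, 477 and 793 CPM, a log2 fold change of -1.61. Of 28 regulators kept, Sox9, Sox6, Sox8, Mef2c, Pth1r and Ihh were lower, and Gdf5 (3.74), Gdf6 (3.22), Runx1 (2.50) and Epas1 (2.45) were higher. Gdf5 and Gdf6 are growth factors of the joint-forming zone, and Epas1 encodes HIF-2alpha. All 8 defining chondrocyte markers, which are Col2a1, Acan, Sox9, Comp, Matn3, Col9a1, Col11a1 and Hapln1, were set apart as lower. Their summed level was 1524 and 2532 CPM against 14280 to 33180 CPM, so they were low but present in both libraries.

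Markers of hypertrophy, the last stage of the growth plate chondrocyte, split. Col10a1, type X collagen, was at 8.01 and 10.4 CPM against 206, 426 and 856 CPM (-5.58), and Panx3 was lower by -4.49. Spp1 was at 176400 and 160300 CPM against 1369, 3108 and 13480 CPM (5.22), and Mmp13 and Enpp1 (2.90) were higher too. In the list of the superficial zone, the layer that lubricates the joint, Prg4 or lubricin was at 5817 and 3890 CPM against 24.1, 839 and 1498 CPM (2.72). Thbs4 (4.18) and Chil1 were higher as well, and Cd24a (-2.67) and Dkk3 (-2.70) were lower.

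Genes that build glycosaminoglycan chains and process collagen were lower more often than higher. Of 33 glycosaminoglycan genes 9 were lower and 5 higher. The lower ones included the sulfate transporter Slc26a2, at 40.8 and 46.0 CPM against 304 to 898 CPM (-3.49), and Papss2 (-3.08), which makes the sulfate donor. Among the higher ones were Has1 (4.89), a hyaluronan synthase, and Tnfaip6 (2.48), which crosslinks hyaluronan in inflamed tissue. Of 28 collagen folding and crosslinking genes 7 were lower, led by Loxl4 (-5.30) and Pcolce2 (-4.64), and 2 higher. Type I collagen genes were lower as well. Col1a1 was at 28.1 and 61.0 CPM against 119, 571 and 1687 CPM (-3.61) and Col1a2 was lower by -3.53. Of 25 contractile genes, none was higher and Acta1, Acta2, Tagln (with Pcsk7 on the other strand) and Tagln2 were lower.

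**Figure D3:**
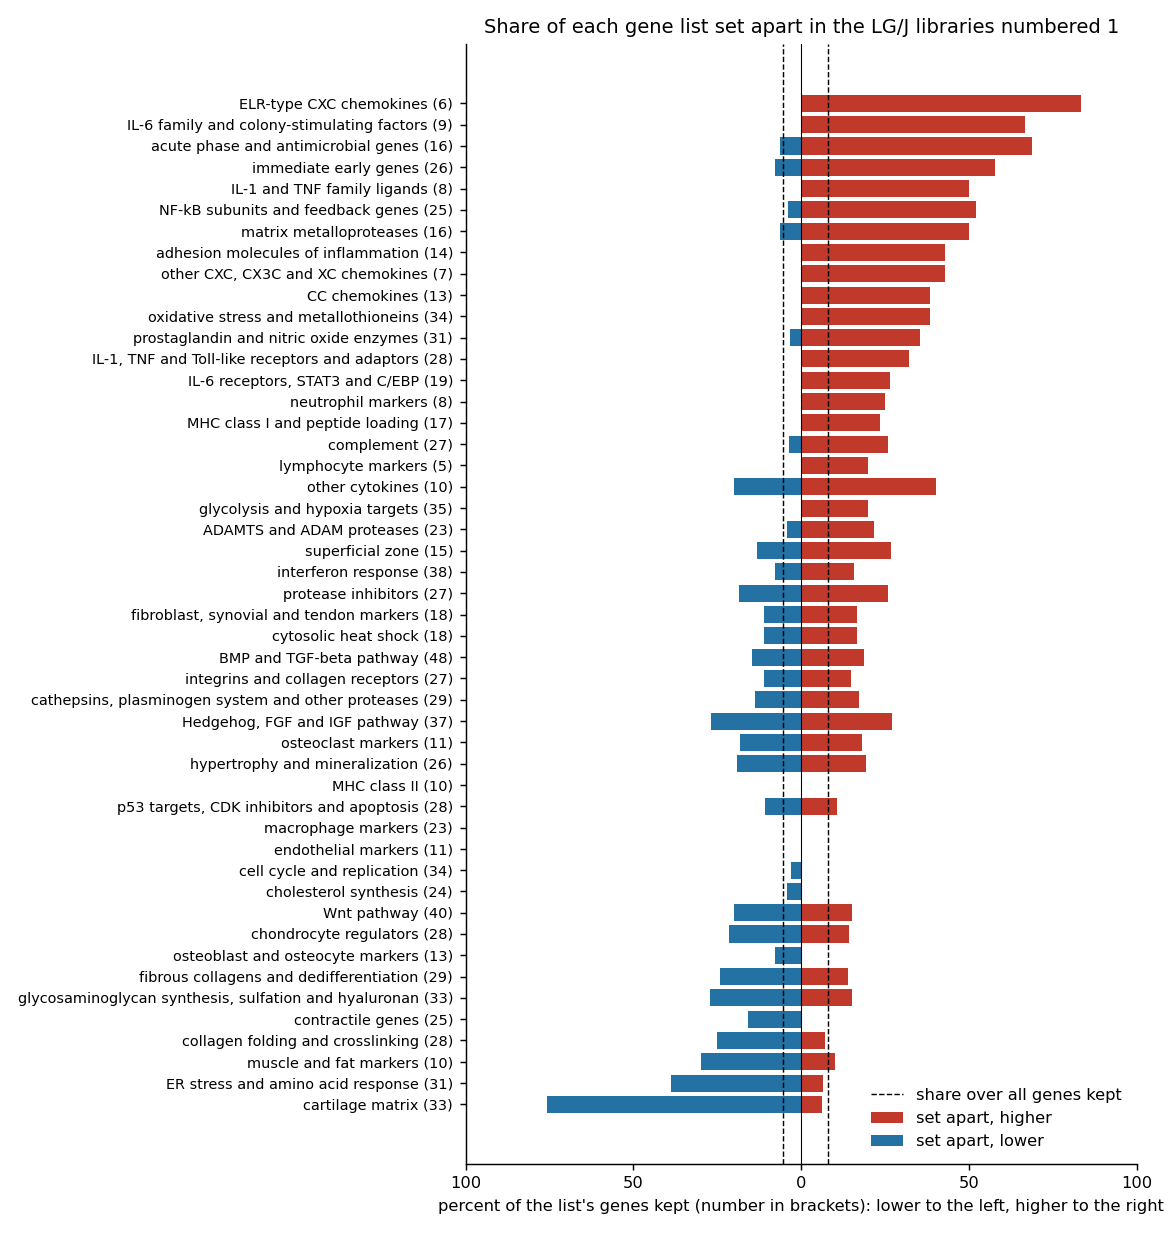
Share of each gene list set apart in the LG/J libraries numbered 1, with the percent of kept genes that were lower drawn to the left in blue and higher to the right in red, and the number of kept genes in brackets. Dashed lines mark the shares over all genes kept, 5.45% lower and 7.97% higher; neutrophil-attracting CXC chemokines stand at the top with 5 of 6 higher, and cartilage matrix at the bottom with 25 of 33 lower.

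Growth factor genes were set apart in both directions. In the Hedgehog, FGF and IGF list 10 of 37 genes were higher and 10 lower. Fgf7 was at 636 and 590 CPM against 7.54 to 54.6 CPM (4.48), and Fgf10, from the same subfamily, was at 19.3 and 9.67 CPM against at most 0.863 CPM (5.10). Fgfr3, the FGF receptor that restrains growth plate chondrocytes, was lower (-3.48), as were Fgf21 (-6.13), Igf2 (-4.20) and Igfbp5 (-5.49). In the BMP and TGF-beta list 9 of 48 were higher and 7 lower. Inhba, the activin A subunit, was at 2026 and 1446 CPM against 46.3 to 709 CPM (3.83), and the BMP antagonists split into Grem1 (3.58, higher) and Chrdl1 (-5.15) and Chrdl2 (-4.87, lower). The Wnt list had 6 of 40 higher and 8 lower, among the latter the Wnt antagonist Frzb (-3.07).

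Of 34 oxidative stress and metallothionein genes, 13 were higher and none lower. Fth1, the ferritin heavy chain that stores iron, was at 63140 and 54940 CPM against 6281, 11280 and 15290 CPM (2.43). The metal-binding Mt2 (3.02) and Mt1 (2.33) and the superoxide dismutases Sod3 (3.33) and Sod2 (1.60) were set apart in the same direction. Of 35 glycolysis and hypoxia targets 7 were higher, led by Car9 (3.28), Adm (3.16) and Egln3 (2.97), and none was lower. The list of ER stress and the amino acid response went the other way, with 12 of 31 lower and 2 higher (median -0.66). Ddit3 was at 64.5 and 60.5 CPM against 194 to 1323 CPM (-3.41), with a locus that overlaps Mars on the other strand, and Trib3 (-3.59) and Slc7a5 (-3.64), an amino acid transporter, were lower too. Of 34 cell cycle genes only Ccnd2 was set apart (-1.13), against shares of 7.97% higher and 5.45% lower over all genes kept. The 5 sex-linked transcripts could not be set apart, since the rule needs the female and the male on the same side of libraries of both sexes.

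Beyond the lists, the 15 largest differences downward included Ostn (-7.57), a secreted peptide of bone and muscle, Padi2 (-7.22), which converts arginine to citrulline in proteins, and Cdsn (-6.65), an adhesion protein of the skin. Cdsn was at 30.1 and 32.8 CPM against 1521, 3197 and 4201 CPM. Mymk, a muscle fusion factor, had 2 counts in the pair, too few for a fold change, and was at 0 and 0.123 CPM against 0.535 to 21.8 CPM. Ostn was at 0.482 and 0.246 CPM against 9.01, 74.4 and 146 CPM. Fxyd3, a regulator of the sodium pump, was at 0.241 and 0.862 CPM against 14.2 to 50.9 CPM (-5.95), while SM/J libraries held it at 0.153 to 5.14 CPM, so the pair overlapped SM/J for this gene. Upward, Hcar2, a receptor for nicotinic acid and ketone bodies, was at 275 and 176 CPM against at most 2.65 CPM (7.33). Of the genes set apart as lower, 14 had no count in the pair, so only a lower bound of their fold change can be given. For Nat8f5, the highest of them in the other LG/J libraries and named after its value was seen, the bound was at least 26.5-fold lower, with the floor of 3 counts taken per library.

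Most markers of blood cells were not set apart, and over all genes kept only 13.4% were. None of 23 macrophage markers kept was set apart, and their median log2 fold change was -1.25. Of 8 neutrophil markers kept, S100a8 and Camp (5.37) were higher, and of 5 lymphocyte markers kept, Lck (1.76) was higher. The 7 defining macrophage markers summed to 150 and 153 CPM in the pair against 11.3, 39.3 and 663 CPM in the others, and Cd68 made up 145 and 148 CPM of that sum. Ptprc, the pan-leukocyte CD45, was at 2.17 and 1.36 CPM, Csf1r (with Hmgxb3 on the other strand) at 0.843 and 0.862 CPM and Adgre1 at 0.241 and 0.370 CPM, all inside the range of the other LG/J libraries. The 6 defining neutrophil markers summed to 90.1 and 30.7 CPM against 0.247 to 1.46 CPM, nearly all of it S100a8, which was at 89.5 and 29.8 CPM. The other defining neutrophil markers S100a9, Ly6g, Cxcr2, Mpo and Elane were all below 1 CPM, and S100a9 had 2 counts in the female and none in the male.

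Defining markers of other cell types were also compared. Fibroblast markers summed to 145 and 144 CPM against 10.95, 37.6 and 89.7 CPM, with 1 of 5, Pdgfra at 130 and 131 CPM, set apart as higher. Endothelial markers summed to 7.23 and 5.42 CPM, within 1.46 to 8.60 CPM, and lymphocyte markers to 3.07 and 3.26 CPM against 0.390 to 3.02 CPM. Osteoblast markers summed to 534 and 790 CPM against 620 to 3864 CPM, and osteoclast markers to 136 and 156 CPM against 200 to 464 CPM. Most of the osteoclast sum was Ctsk, the member set apart as lower, at 121 and 123 CPM, while Acp5 and Atp6v0d2 in the male, at 29.2 and 3.76 CPM, lay above the highest other LG/J library, at 28.4 and 2.83 CPM. No defining marker of these cell types was at 0 in both libraries. The part of the fibroblast markers in the differences was not tested.

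The female and the male of the pair were compared with each other. Across genes, the deviation of the female 1 from the 7 other females and that of the male 1 from the 7 other males had a Pearson r of 0.82 over 17603 genes, given as a description since both libraries were chosen for like values. Both deviations exceeded 2-fold upward in 1689 genes and downward in 960, and they exceeded it in opposite directions in 53. A larger number exceeded it in 1 library only, 1547 genes in the female and 1677 in the male, of 5926 genes that did so in either. The 2 deviations differed from each other by at least 2-fold in 2023 genes. Distance was taken as the median squared difference over genes with a mean count of at least 50, relative to that from sampling noise alone. Between the 2 libraries it was 5.52. On this squared scale their distances to the other LG/J libraries were 27.4 to 55.6, and those between the other females and males 5.53 to 42.6. Only 4 pairs of libraries were closer than the number 1 pair, each of 1 sex with neighbouring numbers: males 4 and 5, females 7 and 8, males 2 and 3 and females 4 and 5, at 4.19 to 4.53. Females 4 and 5 also both held Ddx3y, at 23.04 and 19.4 CPM. Whether such neighbours come from 1 source is not stated in the labels and was not tested. The main fits below treat all libraries as independent.

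**Figure D4:**
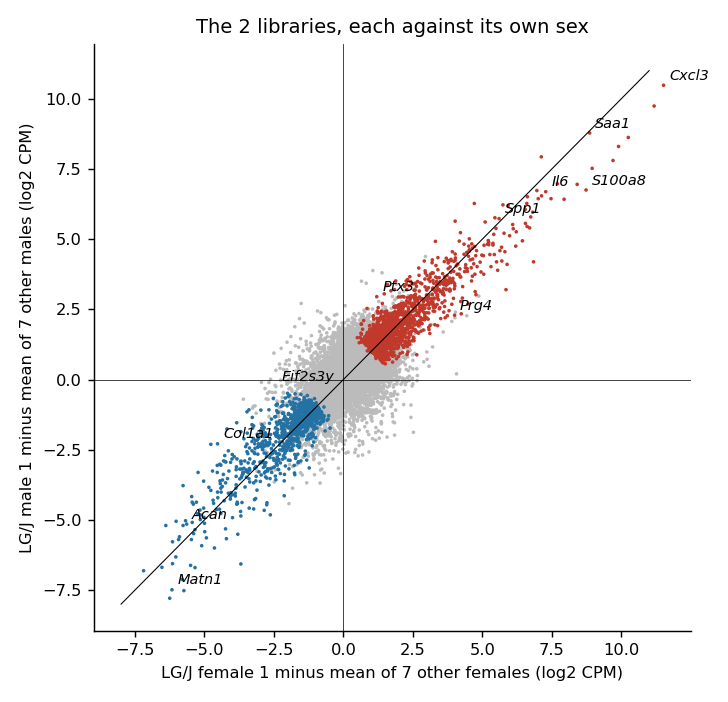
Deviation of the LG/J female 1 from the mean of the other 7 females (x axis) and of the LG/J male 1 from the mean of the other 7 males (y axis), both in log2 CPM, 1 point per gene, with the line of equal deviation. Red and blue points are genes set apart as higher and lower, which lie along the line from Matn1 at the bottom left to Cxcl3 at the top right, and Prg4 and S100a8 lie on the female side of it.

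The strength of the state differed between the 2 libraries for some genes, with 1 library on each side and so no replicate check. Higher in the female were S100a8, by 1.98 on the log2 scale of the deviations, Cxcl2 (1.90), Ccl2 (1.79), Grem1 (1.75), Prg4 (1.72) and Nos2 (1.62). Higher in the male were Ptx3, a long pentraxin at 154 CPM in the female and 327 CPM in the male, and the less reduced Col1a1 (28.1 and 61.0 CPM) and H19 (11.3 and 45.6 CPM). Col2a1 and Comp were also lower in the female, at 615 and 118 CPM, than in the male, at 1346 and 282 CPM.

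Whether the number itself goes with the state was asked in SM/J, whose libraries the choice did not use. SM/J female 1 and male 1 were tested against the other 14 SM/J libraries with the quasi-likelihood test of edgeR and a sex term. Of 17166 genes 1 passed an adjusted p under 0.05 (0.00583%), Copz2, a coat protein of Golgi vesicles, with a log2 fold change of 1.10 ± 0.16 (SE, adjusted p = 0.0308 by edgeR). At an unadjusted p under 0.05 there were 2068 of the 17166 genes, a share above 0.05. DESeq2 called 45 higher and 32 lower, in a fit that replaced an outlying count in 12 genes. Of the 1269 genes set apart as higher in LG/J and kept in SM/J none was called by edgeR, and their median log2 fold change was 0.02 against -0.03 for all genes. Of the 943 lower genes none was called either, with a median of -0.03. By the same descriptive rule of no overlap and 2-fold, 186 SM/J genes (1.08%) were set apart, 67 as higher and 119 as lower. Of the 67, 13 were also higher in the LG/J pair, where 1269 of the 17166 genes were. Of the 119, 4 were also lower in the LG/J pair, where 943 of the 17166 were.

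Single chemokine and acute phase genes were high in some SM/J libraries, below the LG/J pair. Saa3 was at 1022 CPM in the SM/J female 1 and 1583 CPM in the SM/J male 1, and the others ran from 11.6 to 2960 CPM. Their log2 fold change was 2.69 (edgeR, adjusted p = 0.472). Cxcl5 was at 78.4 and 144 CPM against 1.33 to 110 CPM (2.92 ± 1.16, edgeR, adjusted p = 0.350), and Lcn2 at 2022 and 2810 CPM against 233 to 4115 CPM (1.78 ± 0.78, edgeR, adjusted p = 0.382). SM/J males 2 and 3 held Cxcl5 at 110 and 106 CPM and Cxcl1 at 171 and 222 CPM. No SM/J library reached the lower of the LG/J pair for Cxcl1, Cxcl5, Il6, Nos2, Saa3 or Lcn2. Acan did not follow: it was at 727 and 1420 CPM in the SM/J number 1 libraries, within the 517 to 1971 CPM of the others (-0.04 ± 0.43, edgeR, adjusted p = 0.978). A p that misses the threshold does not show that the values did not differ.

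**Figure D5:**
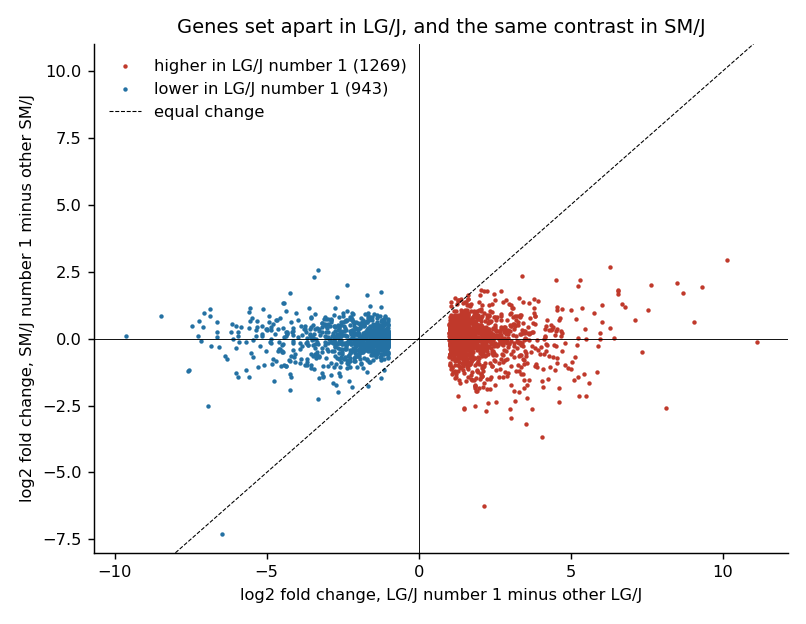
Log2 fold change of number 1 against the other libraries in LG/J (x axis) and in SM/J (y axis) for genes set apart in LG/J, 1269 higher in red and 943 lower in blue. Most points lie around 0 on the SM/J axis, away from the dashed line of equal change, with Cxcl5 at 2.92 and Saa3 at 2.69 among the highest.

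Within LG/J the 14 other libraries were not equally far from the pair. On the squared scale above, the LG/J female 1 was nearest to female 6, at 31.9, and the male 1 to male 2, at 27.4. Female 3 lay at 36.4 from the female 1 and 30.6 from the male 1. The shares that follow count how often a library was the extreme of the 14, which is not a distance. LG/J female 3 was the highest of the 14 for 25.2% of the genes set apart as higher (13.7% of all genes kept) and the lowest for 45.9% of the genes set apart as lower (13.6% of all). For Matn1 the lowest of the others was 313 CPM and for Acan 1176 CPM, still above the pair. LG/J males 2 and 3 carried the highest Cxcl1, at 84.5 and 70.0 CPM, Il6, at 0.965 and 0.845 CPM, and Nos2, at 6.32 and 7.33 CPM. They are also among the close pairs of neighbouring numbers above, so they may not be separate cases.

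The study's named comparison, LG/J against SM/J, was fitted with all 32 libraries and again with the 30 that leave out the pair. With 32 libraries edgeR called 4827 of 16136 genes (29.9%), and with 30 it called 5224 of 16229 (32.2%). Both fits called 4296 genes, 519 were called only with the pair and 894 only without it. Of 2160 genes set apart in the pair and kept in both fits, 26.5% were called with 32 libraries and 38.9% with 30. Among these, the genes set apart as higher shifted most: 228 of 1214 were called higher in LG/J and 63 lower with the pair, against 112 higher and 289 lower without it. Of the genes set apart as lower, 189 of 946 were called higher in LG/J with the pair and 353 without it. Direction turned in 76 genes called in at least 1 fit, all from higher to lower in LG/J, and all 76 belonged to the genes set apart as higher. The pair was chosen for its values and left out of LG/J only, so this direction follows from the choice. The adjusted p-values of the fit with 30 libraries do not allow for that choice.

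In 5 of these genes both fits made a call, with opposite signs: Cxcl1, Cxcl2, Cxcl3, Cxcl5 and Arg2, an arginase gene with Vti1b on its other strand, named after its value was seen. Cxcl5 was higher in LG/J by 4.26 ± 1.39 on the log2 scale with 32 libraries (edgeR, adjusted p = 0.0200) and lower, at -2.66 ± 0.75, with 30 (edgeR, adjusted p = 0.00686). Cxcl3 went from 6.56 ± 1.48 (edgeR, adjusted p = 0.000973) to -1.56 ± 0.38 (edgeR, adjusted p = 0.00204). Cxcl1 went from 3.72 ± 1.20 (edgeR, adjusted p = 0.0180) to -1.71 ± 0.62 (edgeR, adjusted p = 0.0348). For Cxcl5 and Cxcl1 the direction with 32 libraries depended on the tool, and the edgeR call depended on 1 library. DESeq2, which replaced outlying counts of Cxcl5 and Cxcl1 in both libraries of the pair and of Cxcl5 in the SM/J female 1, gave -1.94 and -1.57 with all 32 (DESeq2, adjusted p = 0.00319 and 0.0139). Without the LG/J female 1 alone, edgeR gave 0.26 for Cxcl5 and 0.44 for Cxcl1 and called neither.

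Other inflammatory genes lost or gained a call. Il6 was called higher in LG/J with the pair, at 4.05 ± 1.01 (edgeR, adjusted p = 0.00251), and was at -0.10 ± 0.45 without it (edgeR, adjusted p = 0.893). Mmp3 (2.54 ± 0.98, edgeR, adjusted p = 0.0498) and Nos2 (4.86 ± 1.28, edgeR, adjusted p = 0.00422) were at -1.16 ± 0.60 (edgeR, adjusted p = 0.148) and -1.27 ± 0.58 (edgeR, adjusted p = 0.0930). With all 32 libraries DESeq2, again with replaced counts in the pair (for Nos2 also in the SM/J female 1 and male 3), called none of these 3 genes, at -0.14 for Il6, -1.08 for Mmp3 and -0.48 for Nos2 (DESeq2, adjusted p = 0.852, 0.103 and 0.424). Slpi was not called with the pair (0.47 ± 0.85, edgeR, adjusted p = 0.728) and was lower in LG/J without it (-3.21 ± 0.48, edgeR, adjusted p = 5.23e-06). Lcn2, Saa3 and Adamts5 also were called lower in LG/J only without the pair. Prg4 kept its call as higher in LG/J, at 1.83 ± 0.45 and 1.06 ± 0.35 (edgeR, adjusted p = 0.00243 and 0.0219).

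Acan, Col2a1, Col10a1 and Sox9, all lower in the pair, had the same direction in both fits and smaller standard errors without the pair. Among chondrocyte genes higher in the pair, Gdf5 turned from 0.42 ± 0.45 (edgeR, adjusted p = 0.527) to -0.94 ± 0.19 (edgeR, adjusted p = 0.000231). Spp1 and Mmp13 turned in the same direction without a call in either fit, while Prg4 did not turn. Acan was higher in LG/J by 0.94 ± 0.35 with the pair (edgeR, adjusted p = 0.0443) and by 1.12 ± 0.18 without it (edgeR, adjusted p = 1.59e-05). The call of Acan with all 32 libraries was lost when any of 23 single libraries was left out. Col2a1 was called only without the pair (0.19 ± 0.24, edgeR, adjusted p = 0.613, against 0.36 ± 0.10, edgeR, adjusted p = 0.00758), and so was Col10a1 (1.12 ± 0.43, edgeR, adjusted p = 0.0509, against 1.31 ± 0.32, edgeR, adjusted p = 0.00193). Sox9 was called in both fits, at 0.47 ± 0.15 and 0.59 ± 0.10 (edgeR, adjusted p = 0.0163 and 1.85e-05).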

How the data were processed

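RNA was sequenced from 32 libraries of cultured mouse chondrocytes. Per the submitters' processing notes, the authors used STAR 2.0.4b, featureCounts 1.45 and GRCm38. The sources used here do not give the annotation release or the settings for strand and multimapping. The deposited files hold raw counts per gene for 41388 genes, with CPM and RPKM columns that the authors computed from the counts (largest differences on recomputing 1.2e-10 and 9.1e-11). Genes without a symbol, 1134 with 0.109% of counts, stayed in the tests.

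The counts were analysed in R 4.3.3 with edgeR 4.0.16 (TMM, filterByExpr, robust quasi-likelihood fit, sex as covariate). Adjusted p-values are Benjamini-Hochberg over all genes tested, with a threshold of 0.05. DESeq2 1.42.0 was an alternative. The scripts were tested on simulated data. LG/J levels were TMM-scaled over the 16 LG/J libraries and SM/J levels over all 32.

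The pair and the gene lists (50 lists, 1211 genes) were chosen with earlier results of these data known. Named genes are the 15 largest differences each way with at least 8 CPM on the higher side and a gene name other than a predicted one, up to 3 per list, a fixed set of cartilage and inflammation genes, and further list members in the sentences on their list. Alternatives were other scalings, filters, prior counts and thresholds, no sex term, another control side and libraries left out. Total counts per library give the depth, and counts of 3 were taken as the floor.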

Additional observations from a re-analysis of the deposited data

Results flagged for a closer look

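Each of 19 key genes was searched in each group of 8 libraries for a highest or lowest library far from the rest (Dixon's criterion). For values that follow a normal distribution, chance alone meets this criterion in about 1 of 20 groups. The search used CPM without a log scale, and the chance rate for such values was not tested. All values found by this search are therefore given as descriptions. The LG/J female 1 stood apart from the other 7 females in 13 of the 19 genes and the LG/J male 1 from the other 7 males in 16. These libraries were chosen for such values, so the counts are descriptions.

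With the number 1 libraries left out, 2 LG/J values remained far from the rest. Cxcl5 was at 6.23 CPM in the LG/J female 5 against 0.741 to 2.75 CPM in the other females, and Ptgs2 was at 545 CPM in the LG/J female 3 against 56.1 to 163 CPM.

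In SM/J, the female 1 was far above the other 7 females for 5 genes. It held Cxcl1 at 99.3 CPM against 7.06 to 42.7 CPM, Cxcl5 at 78.4 CPM against 1.33 to 12.8 CPM and Saa3 at 1022 CPM against 17.1 to 190 CPM. Lcn2 was at 2022 CPM against 233 to 527 CPM, and Nos2 at 15.8 CPM against 0.440 to 5.42 CPM. All 5 values lay below the LG/J pair. Prg4 was at 583 CPM in the SM/J female 6 against 185 to 364 CPM, and Il6 at 1.16 CPM in the SM/J male 2 against 0.106 to 0.599 CPM in the other males.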

How the results depend on the processing

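Scaling by library size alone gave 849 genes higher and 1738 lower in the LG/J pair, and a log2 fold change of at least 2 gave 531 and 409. Leaving out 1 LG/J library gave 1393 to 2171 higher and 947 to 1353 lower, with 2171 and 1353 without the LG/J male 1 and 2003 and 1236 without the LG/J female 1; 1 library alone then forms the side. No other setting moved these counts by over 1.5 times. For named genes, 3717 values moved by less than the spread and 50 by more, none with a turned sign.

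In SM/J, DESeq2 called 45 higher and 32 lower. Leaving out 1 SM/J library gave 0 to 25 higher and 0 to 3 lower by edgeR, the most without the SM/J female 2 (25 and 3), with 7 higher without female 1 and 2 without female 4.

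For the strain difference, leaving out 1 of the 32 libraries gave 2439 to 2836 genes higher in LG/J and 2010 to 2360 lower. Without the LG/J female 1 alone, log2 fold changes fell to 0.37 for Mmp3, 0.44 for Cxcl1, 0.26 for Cxcl5, 1.75 for Il6 and 1.27 for Nos2. Without both libraries the sign turned for Mmp3 (-1.16), Il6 (-0.10), Cxcl1 (-1.71), Cxcl5 (-2.66) and Nos2 (-1.27). DESeq2, which replaced outlying counts of these 5 genes in both libraries, gave -1.08, -0.14, -1.57, -1.94 and -0.48 (adjusted p = 0.103, 0.852, 0.0139, 0.00319 and 0.424).

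With the replicate number as a block, Mmp3 was at -0.84, Cxcl1 at -0.80 and Cxcl5 at -0.76 (edgeR, adjusted p = 0.349, 0.352 and 0.438), with 2677 genes higher and 2609 lower. The labels do not say whether the numbers pair the libraries. Deviations of same-numbered libraries had r of -0.45 to 0.56 over 16 pairs, 10 of them above 0.1, and 1 of 16 LG/J libraries was closest to its own number. These values do not settle whether same-numbered libraries were handled together. No paired analysis was possible for the LG/J pair because the number 1 defines the side. The cause of these changes was not tested. Differences at levels near 3 counts are not detectable at this depth.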

Other observations

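Beside the inflammatory and cartilage genes, 3 further groups were looked at after values had been seen, so they are descriptions without a test, to be read against 7.97% of all genes higher and 5.45% lower. Of 19 imprinted genes kept, which are expressed from 1 parental copy and many of which regulate growth, none was set apart as higher and 9 were lower, with a median log2 fold change of -1.55. H19 was at 11.3 CPM in the LG/J female 1 and 45.6 CPM in the LG/J male 1 (-3.27), Mest at 9.88 and 18.4 CPM (-4.45) and Igf2 at 14.04 and 13.7 CPM (-4.20). Peg3, Peg10, Plagl1, Grb10, Phlda2 and Zim1 were the others.

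Of 14 enzymes of serine, glycine and folate metabolism, 9 were lower and 1 was higher (median -1.69). Phgdh, the first enzyme of serine synthesis, was at 12.2 and 22.2 CPM (-2.89), and Psat1 (-1.54) and Shmt2 (-1.05) were lower too. Gldc, which breaks down glycine in mitochondria, was the higher one, at 33.9 and 18.1 CPM (5.22). Of 16 amino acid transporters kept, 8 were lower, among them Slc7a5 and its partner Slc3a2, and 2 were higher, Slc38a4 and the cystine transporter Slc7a11 at 106 and 58.8 CPM (2.38).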
